A study of Mus musculus with 24 samples.

Results

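The transition from CT14 to CT18 in mouse liver was examined in 8 of the 24 liver RNA-seq samples of the series, chosen by their sample titles: 4 libraries of CT14 and 4 of CT18, in each case 2 from wild-type (WT) and 2 from ΔRRE male mice of the C57BL/6 strain. CT is circadian time, the internal time of an animal kept in constant darkness, and CT14 and CT18 fall in the early and middle part of the night, when mice are active and feeding. The ΔRRE mice are homozygous for a CRISPR-Cas9 deletion of both RREs upstream of Bmal1 (listed as Arntl), carried in the germline and from mouse line 1, and the WT mice are the controls. No drug was given, and the study gives a range of ages for the mice, from young adults to animals several months old, without the age behind each library. Whole liver was taken, so fewer cells of a type and less RNA per cell cannot be told apart. Each library is labelled only by a replicate number, so the tests below measure the spread between these libraries.

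Background on the clock helps in reading these genes. CLOCK and BMAL1 bind E-boxes and switch on Per, Cry, Nr1d1, Nr1d2, Dbp and Tef. The PER and CRY proteins then inhibit CLOCK-BMAL1, REV-ERBα and REV-ERBβ (products of Nr1d1 and Nr1d2) repress genes that carry RREs, and the PAR bZIP factors DBP, TEF and HLF activate genes that carry D-boxes. In the liver this clock runs together with feeding, glucocorticoids and insulin to time lipid, glucose and xenobiotic metabolism.

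Between CT14 and CT18 the clock genes Nr1d1, Nr1d2, Ciart, Dbp, Tef and Per1 fell, and the fatty acid elongase Elovl3, the water channel Aqp8, the tubulin Tubb2a and the claudin Cldn1 were among the genes that rose. FPKM, the unit of all levels here, is the number of fragments scaled to transcript length and to the mapped fragments of the library. Among the 11244 genes whose mean reached 1 FPKM, 45 were higher at CT18 (0.400% of the genes tested) and 26 were lower (0.231%), 71 in all (0.631%), in limma with genotype as a term (called where p adjusted by the Benjamini-Hochberg method was under 0.05). At an unadjusted p under 0.05, 775 genes were higher and 853 lower, and the median log2 change over all genes was -0.02. For all 71 genes the 4 libraries of one time point lay above the 4 of the other, which held for 4.24% of all genes tested in the upward direction and 5.05% in the downward direction. The call itself favours such genes.

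The counts depended on single libraries. Without WT CT14 replicate 1 there were 19 genes higher and 13 lower, and without WT CT14 replicate 2 there were 20 and 13. Without WT CT18 replicate 1 there were 16 and 12, and without WT CT18 replicate 2 there were 10 and 11. Without ΔRRE CT14 replicate 1 there were 16 and 14, without ΔRRE CT18 replicate 1 there were 14 and 15, and without ΔRRE CT18 replicate 2 there were 9 and 11. Without ΔRRE CT14 replicate 2 the counts were 48 and 33. All 71 genes kept their direction in each of these fits, but between 19 and 49 of them were still called. With no filter on low values, 28380 genes were tested and limma called 0, with 2450 at an unadjusted p under 0.05. The alternatives were followed for 34 called genes, named by the rule, taken from lists made after the values were seen, or called in WT alone. Of these, 11 were called in every other alternative: Nr1d1, Dbp, Ciart, Gpcpd1, Fkbp5, Tubb2a, Tubb2b, Cldn1, Clpx, Tfpi2 and the predicted gene Gm2788.

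One library stood apart. ΔRRE CT14 replicate 1 held 1069 FPKM of Saa1, 751 of Saa2 and 205 of Lcn2, genes of the acute-phase response, where the other 7 libraries held 39.9 to 445 FPKM of Saa1, 11.9 to 159 of Saa2 and 2.86 to 8.31 of Lcn2. Its median correlation with the libraries of the other groups was 0.948, against 0.958 to 0.970 for the other 7. Hepatocyte markers summed to 39192 to 51533 FPKM at CT14 and 40546 to 46987 at CT18, all 6 of them passing the filter, and exocrine pancreas and adipocyte markers summed to at most 0.169 FPKM. Kupffer cell markers (10 of 10 passing) ranged from 43.8 to 98.5 FPKM at CT14 and from 61.9 to 136 at CT18, sinusoidal endothelial markers (7 of 7) from 26.7 to 30.7 and 25.6 to 33.2, stellate cell markers (5 of 7) from 33.5 to 71.1 and 37.5 to 58.5, and cholangiocyte markers (3 of 5) from 21.3 to 25.4 and 20.7 to 35.1. Erythroid markers (1 of 3 passing) gave 26.9 to 54.5 and 43.3 to 54.0 FPKM, neutrophil markers (1 of 5) 0.710 to 12.5 and 0.471 to 1.33, and lymphocyte markers (0 of 7) 0.361 to 2.68 and 1.24 to 3.12. No marker that passed the filter was called, and no marker of lymphocytes, exocrine pancreas or adipocytes passed it. All 10 Kupffer cell markers had a positive log2 change, with a median of 0.30 against -0.02 over all genes. Of the 11244 genes tested, 5213 had a positive change.

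Promoter sequence is shown first for called genes that carry a clock motif, because the factors of the clock act through these motifs. RefSeq promoter windows (GRCm38.p6, 250 bases before to 50 after a start) were found for 20 of the 26 genes that fell and 30 of the 45 that rose. The E-box CACGTG, read on both strands, was in 6 of the 20 (Ciart, Coq10b, Fkbp5, Maff, Per1 and Tef) and also in 7 of the 30 (Aqp8, Cgn, Lasp1, Pnpla7, Rec114, Tjp3 and a predicted gene). It was in 12.2% of the 8226 tested genes with a window and in 8.09% of all 27025 genes with one. Nr1d1, Nr1d2 and Dbp, which also fell, are not among the genes with an E-box match, and sequence outside the windows was not searched. The RRE core TAGGTCA was in 0 of the 20 and 3 of the 30 (Adh4, Tfpi2 and Tjp3), against 2.53% of tested genes and 2.97% of all genes. The RRE given in the study is longer, with A or T at set places before the core, and also allows TGGGTCA. In none of the 3 genes did the bases before the core match that longer form. Read on the motif strand, these bases were tttg in Adh4, acac in Tfpi2 and gaac in Tjp3. The form TGGGTCA was not searched for. The D-box TTANGTAA was in 1 of the 20 (Coq10b) and 0 of the 30, against 2.08% and 2.72%. A match is a description of the letters in these windows and not a bound site. The stretches below end before the start site, with the motif in capitals.

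Ciart, chr3:95882237-95882374, minus strand, 3 E-boxes starting 116, 58 and 44 bases before the start: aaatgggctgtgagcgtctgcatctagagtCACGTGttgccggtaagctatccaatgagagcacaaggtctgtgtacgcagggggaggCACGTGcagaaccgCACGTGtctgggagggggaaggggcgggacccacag

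Per1, chr11:69098753-69098818, plus strand, E-box 166 bases before one of its starts: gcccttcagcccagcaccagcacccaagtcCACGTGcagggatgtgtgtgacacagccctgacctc

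Tef, chr15:81811246-81811311, plus strand, E-box 138 bases before one of its starts: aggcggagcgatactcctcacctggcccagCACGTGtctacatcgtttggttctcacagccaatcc

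Fkbp5, chr17:28486283-28486348, minus strand, E-box 169 bases before the start: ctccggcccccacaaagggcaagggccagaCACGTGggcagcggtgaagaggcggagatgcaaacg

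Coq10b, chr1:55052578-55052727, plus strand, D-box (as its reverse complement) 162 and E-box 78 bases before the start: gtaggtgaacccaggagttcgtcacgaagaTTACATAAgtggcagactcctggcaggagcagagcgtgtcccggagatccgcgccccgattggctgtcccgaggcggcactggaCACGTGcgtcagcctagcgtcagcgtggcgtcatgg

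Aqp8, which rose, chr7:123462189-123462254, plus strand, E-box 75 bases before the start: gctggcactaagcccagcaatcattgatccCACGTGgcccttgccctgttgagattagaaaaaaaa

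Adh4, which rose, chr3:138415333-138415399, plus strand, RRE core 134 bases before the start: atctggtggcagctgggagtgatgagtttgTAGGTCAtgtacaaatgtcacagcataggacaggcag

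Tfpi2, which rose, chr6:3988952-3989018, minus strand, RRE core (as its reverse complement) 130 or 52 bases before 2 of its starts: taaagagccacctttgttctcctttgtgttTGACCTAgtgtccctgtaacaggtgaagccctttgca

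Among the called genes with names the largest falls were those of Nr1d1, Dbp and Ciart, which belong to the clock and its outputs. Nr1d1 (chromosome 11, 98767932 to 98775333, minus strand, mm10), which encodes REV-ERBα, measured 12.1 and 7.21 FPKM in the WT libraries of CT14 and 5.86 and 6.64 in ΔRRE. At CT18 it was at 0.457 and 0.990 FPKM in WT and 0.691 and 1.27 in ΔRRE. Every CT18 library thus lay below every CT14 library, and the log2 change was -3.10 ± 0.32 (SE, n = 4 against 4; limma adjusted p = 0.0079), an 8.58-fold fall on the scale of FPKM + 0.1. The annotation (GRCm38) puts 263 of its 3077 exonic bases under exons of Thra on the opposite strand, and whether counting used the strand is not stated.

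Dbp (chromosome 7, 45705088 to 45710203, plus strand), a PAR bZIP activator, held 21.2 and 29.4 FPKM in WT and 34.0 and 17.2 in ΔRRE at CT14. At CT18 the values were 3.14 and 3.45 in WT and 2.44 and 2.98 in ΔRRE, a change of -3.00 ± 0.22 on the log2 scale and the smallest adjusted p of all genes (0.0023). Exons of Sphk2 on the opposite strand cover 18.0% of its exonic bases. Its 2 genotypes fell alike in size, by 2.88 in WT and 3.12 in ΔRRE on the log2 scale, and the difference had an unadjusted p of 0.62 in limma. Tef, the second PAR bZIP factor of the list, fell from 51.1 ± 3.93 FPKM to 28.4 ± 5.66 (SD, n = 4; log2 change -0.86, limma adjusted p = 0.029). Hlf, the third, went from 9.66 and 16.2 FPKM in WT and 7.62 and 11.9 in ΔRRE to 6.86 and 9.69 in WT and 7.63 and 8.51 in ΔRRE. These ranges overlapped, and Hlf was not called (adjusted p = 0.41).

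Ciart, also known as CHRONO and a repressor of CLOCK-BMAL1, had 3 E-boxes in the stretch shown above and fell from 11.1 and 19.8 FPKM in WT and 14.9 and 13.2 in ΔRRE to 2.72 and 2.84 in WT and 3.15 and 1.99 in ΔRRE. Its log2 change was -2.41 ± 0.21 (limma adjusted p = 0.0043). Nr1d2, encoding REV-ERBβ, went from 16.9 and 19.0 FPKM in WT and 17.4 and 12.2 in ΔRRE to 6.08 and 7.58 in WT and 4.96 and 6.02 in ΔRRE, a log2 change of -1.39 ± 0.15 (adjusted p = 0.0079). Per1, a period gene, fell from 8.79 ± 1.57 to 3.98 ± 1.42 FPKM (SD, n = 4; log2 change -1.17, limma adjusted p = 0.042), and the call was lost on leaving out any 1 library other than ΔRRE CT18 replicate 1.

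**Figure D1:**
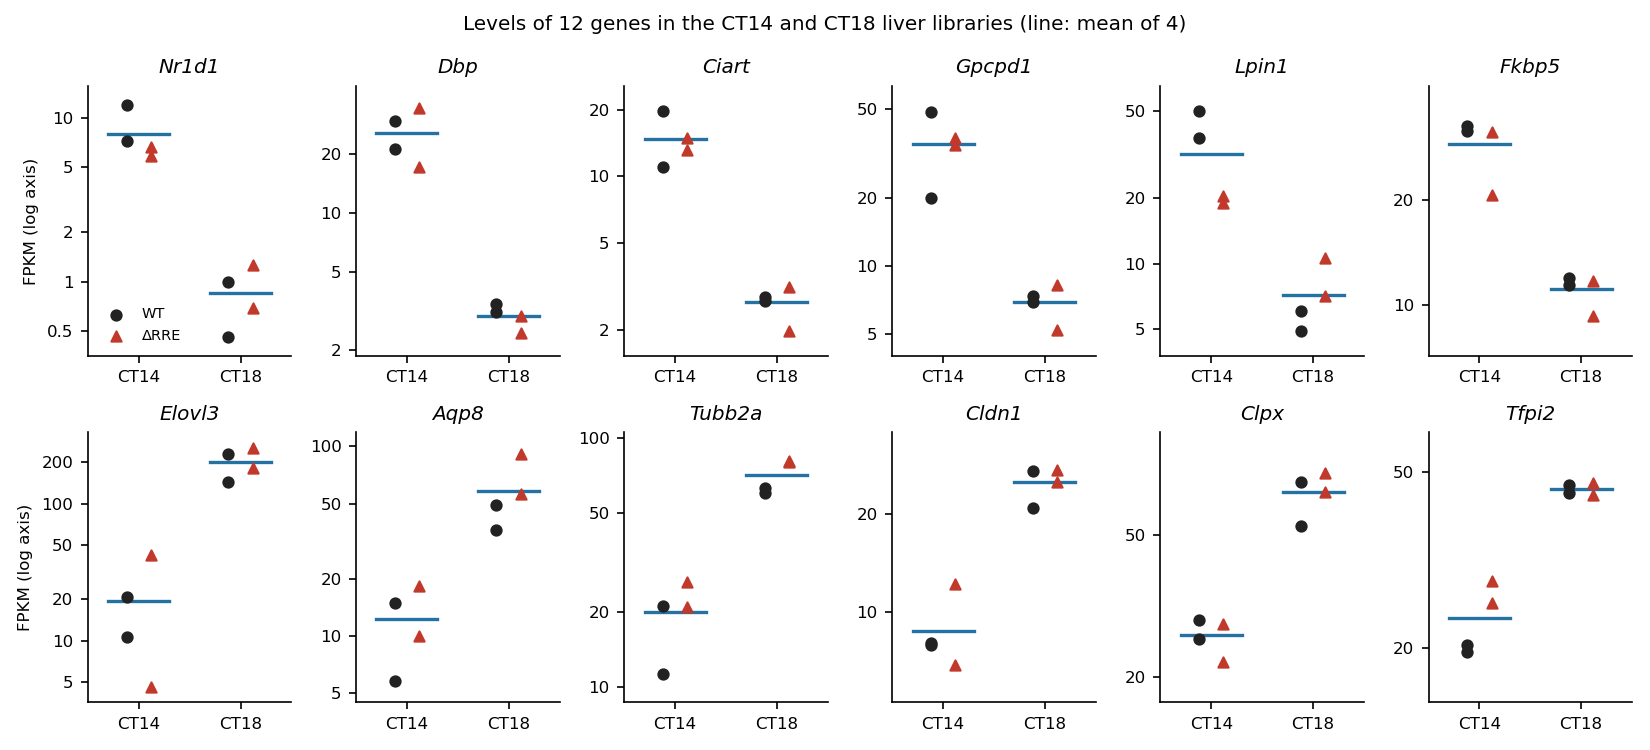
FPKM (log axis) of 12 genes in the 4 libraries of CT14 and the 4 of CT18, with circles for WT, triangles for ΔRRE and a line for the mean of 4. The upper 6 genes were lower in every CT18 library and the lower 6 higher in every one, Nr1d1 by a log2 change of -3.10 and Elovl3 by 3.76.

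The other 11 of the 17 clock genes that passed the filter were not called. Per3 dropped from 5.81, 7.12, 6.31 and 5.69 FPKM to 3.77, 4.03, 4.04 and 4.10 without overlap (log2 change -0.63, adjusted p = 0.066). Per2 stayed within 14.2 to 21.2 FPKM in all 8 libraries, with a log2 change of 0.03 ± 0.16. Cry1 gave 11.7, 7.19, 10.0 and 9.83 FPKM at CT14 and 12.7, 13.4, 20.4 and 17.4 at CT18 (0.71, adjusted p = 0.11), whereas Cry2 gave 10.7 to 11.9 and 10.1 to 11.4. Both Cry2 and Per2 overlapped between the time points.

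On the positive limb, Arntl, the gene whose RREs are deleted in ΔRRE, was at 2.21 and 1.15 FPKM in WT at CT14 and 5.96 and 5.76 at CT18. In ΔRRE it was at 2.59 and 2.49 FPKM and then 2.70 and 3.24. The log2 change was 1.81 in WT and 0.21 in ΔRRE, and the difference between genotypes had an unadjusted p of 0.0058 in limma and an adjusted p of 0.9996. That adjustment runs over all genes tested. By quantitative RT-PCR the study found the rhythm of this gene lost in ΔRRE liver, a measure over the whole day. Clock (3.54, 4.28, 2.74 and 5.69 FPKM against 4.28, 5.42, 4.75 and 5.22), Rora (6.28 to 6.81 against 6.52 to 7.82) and Nfil3 (5.41 to 15.7 against 12.6 to 17.1) overlapped between the time points. Npas2 was at most 0.327 FPKM in all 8 libraries, and Bhlhe40 went from 48.4 and 89.9 FPKM in WT and 38.6 and 43.7 in ΔRRE to 31.8 and 35.7 in WT and 38.2 and 35.8 in ΔRRE (-0.56, adjusted p = 0.30). Over the clock list 6 of 17 members were called lower, against 0.231% of all genes, and 0 higher. Its 7 positive changes, of which 3 had an unadjusted p under 0.05 in limma, stand beside 5213 and 775 among all 11244 genes tested. The median log2 change was -0.42 against -0.02 over all genes, and leaving out 1 library gave 4 or 5 members lower.

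Beyond the clock, the genes that fell included enzymes of lipid, glycogen and pyrimidine metabolism. Gpcpd1, a glycerophosphocholine phosphodiesterase, went from 20.1 and 48.6 FPKM in WT and 34.5 and 37.0 in ΔRRE to 7.38 and 6.88 in WT and 8.19 and 5.17 in ΔRRE (log2 change -2.28 ± 0.26, limma adjusted p = 0.0099). Upp2, a uridine phosphorylase, fell from 207 ± 99.0 to 68.8 ± 20.4 FPKM (SD, n = 4; -1.52, adjusted p = 0.048), with WT CT14 replicate 2 at 351 the highest of all. Cpt1a, the carnitine palmitoyltransferase that admits fatty acids to mitochondrial oxidation, gave 69.7, 83.9, 116 and 68.7 FPKM and then 42.2, 38.7, 39.7 and 39.4 (-1.04, adjusted p = 0.031). Its CT18 libraries lay close together (SD 1.52 FPKM), and ΔRRE CT14 replicate 1 was the highest at CT14. Gys2, liver glycogen synthase, fell from 141, 107, 102 and 94.2 FPKM to 69.1, 79.1, 67.6 and 62.5 (-0.66, adjusted p = 0.049).

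Lpin1, encoding lipin-1, a phosphatidate phosphatase, fell from 37.4 and 49.99 FPKM to 6.06 and 4.91 in WT, and from 20.3 and 18.9 FPKM to 7.10 and 10.6 in ΔRRE. The fall was 2.96 in WT on the log2 scale (limma adjusted p = 0.0086 within WT) and 1.16 in ΔRRE (adjusted p = 0.24). All 4 ΔRRE values lay between the WT values of the 2 time points. The unadjusted p of the difference between genotypes was 0.00068 and the adjusted p 0.90, so a difference was not established across the genes tested.

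Fkbp5, a co-chaperone of the glucocorticoid receptor and one of its standard targets, went from 32.4 and 31.3 FPKM in WT and 31.1 and 20.6 in ΔRRE to 11.96 and 11.4 in WT and 9.33 and 11.7 in ΔRRE (-1.35 ± 0.15, limma adjusted p = 0.0083). Por, the reductase that supplies electrons to cytochromes P450, gave 203, 271, 306 and 152 FPKM and then 108, 79.1, 80.1 and 87.4 (-1.36, adjusted p = 0.031). Maff, a small MAF transcription factor, fell from 2.41 ± 0.679 to 0.503 ± 0.166 FPKM (-2.05, limma adjusted p = 0.031), and Tmtc2 from 3.14 ± 0.333 to 1.45 ± 0.304 (-1.08, adjusted p = 0.045). In the list that holds Fkbp5, the glucocorticoid-responsive Tsc22d3, Sgk1 and Ddit4 had log2 changes of -0.16, -0.20 and -0.13. Zbtb16, Dusp1, Tat and Mt2 had changes of -0.71, -0.75, -0.48 and -4.74, Nr3c1 one of 0.06 and Cdkn1a one of 1.36. None of these was called. Of the 12 members tested, 6 were lower and 1 higher at an unadjusted p under 0.05 in limma, against 853 and 775 of all 11244 genes. The metallothionein Mt1 of that list had the wide values 125, 400, 1536 and 32.9 FPKM at CT14 and 27.8, 12.2, 10.4 and 8.24 at CT18, a log2 change of -4.09 ± 1.003 that was not called (adjusted p = 0.12), and the highest value belonged to ΔRRE CT14 replicate 1.

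Usp2, a deubiquitinase, fell from 19.5 ± 1.46 to 9.98 ± 0.681 FPKM (-0.96, limma adjusted p = 0.0091). The genes that follow in this paragraph are named after their values were seen. Coq10b, a coenzyme Q-binding protein of mitochondria with both a D-box and an E-box in its window, fell from 30.2, 28.3, 36.8 and 26.1 FPKM to 13.7, 15.3, 12.8 and 15.1. St3gal5, the sialyltransferase that makes ganglioside GM3, fell from 106 ± 13.9 to 56.0 ± 4.48 FPKM and Gne, the first enzyme of sialic acid synthesis, from 49.7 ± 9.52 to 26.7 ± 3.90. Gch1, the first enzyme of tetrahydrobiopterin synthesis, went from 51.3 ± 6.07 to 27.2 ± 3.92 FPKM. The remaining genes that fell were Snx10, Pcsk4, Efhd2, Slc25a51 and 2 predicted models.

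Elovl3, a fatty acid elongase for saturated and monounsaturated very long chains, rose most among genes at a high level. Its libraries held 10.7 and 20.9 FPKM in WT and 4.62 and 42.2 in ΔRRE at CT14, and 228 and 144 in WT and 253 and 181 in ΔRRE at CT18. The lowest CT18 library was thus above the highest CT14 library, and the log2 change was 3.76 ± 0.58 (limma adjusted p = 0.031), 13.5-fold on the scale of FPKM + 0.1. Pitx3, a homeobox gene best known from lens and midbrain, rose from 0.159, 0.109, 0 and 0.485 FPKM to 3.68, 2.63, 4.90 and 3.73 (3.98, adjusted p = 0.014). The annotation places Pitx3 (chromosome 19, 46135685 to 46148326, minus strand) end to end with Elovl3 (46131897 to 46135694, plus strand), with 10 exonic bases shared. Whether fragments of one were counted for the other was not tested.

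Aqp8, a water channel of the hepatocyte that takes part in bile formation, went from 14.9 and 5.81 FPKM in WT and 10.0 and 18.5 in ΔRRE to 49.3 and 36.5 in WT and 91.2 and 56.5 in ΔRRE (2.28 ± 0.31, limma adjusted p = 0.020). Clpx, the unfoldase subunit of the mitochondrial ClpXP protease, rose from 29.0, 25.6, 22.1 and 28.2 FPKM to 70.4, 53.1, 74.7 and 66.0 (1.33 ± 0.14, adjusted p = 0.0079). Its spread within a time point was small beside the change, with SDs of 3.11 and 9.35 FPKM.

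Dtx4 and Rnf125, both ubiquitin ligases, rose from 1.09 ± 0.623 to 3.68 ± 0.716 FPKM and from 11.6 ± 3.33 to 26.6 ± 5.39 FPKM (log2 changes 1.76 and 1.204, limma adjusted p = 0.031 and 0.048). Rnf125 rose by 0.75 in WT and 1.66 in ΔRRE, with an unadjusted p of 0.022 for the difference. St5 rose from 4.09 ± 1.396 to 12.3 ± 2.17 FPKM (1.61, adjusted p = 0.031). Rec114, a gene of meiotic recombination, was low throughout, at 0.413 ± 0.0660 and 2.27 ± 1.02 FPKM (2.095, adjusted p = 0.046), and 26.9% of its exonic bases lie under exons of Nptn on the other strand. The filter used the mean of all 24 libraries, and CT18 was the highest time point of Rec114, with the others at 0.413 to 1.34 FPKM. Its call is therefore not independent of the filter.

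A group of junction and cytoskeleton genes was put together after the values were seen, so its counts carry no test. Tubb2a, a beta-tubulin, went from 21.2 and 11.2 FPKM in WT and 20.9 and 26.4 in ΔRRE to 62.8 and 60.3 in WT and 81.1 and 80.0 in ΔRRE (1.88 ± 0.19, limma adjusted p = 0.0071). Tubb2b rose from 2.01 ± 0.515 to 7.07 ± 1.17 FPKM (1.79, adjusted p = 0.0043), and because both genes encode nearly identical transcripts their split is uncertain. Of 12 tubulin genes tested these 2 were called higher and 0 lower, against 0.400% higher over all genes, and both stayed called whichever library was left out. Because of that uncertain split, the 2 calls may not be separate. Cldn1, a claudin that seals tight junctions, gave 7.97, 8.08, 6.90 and 12.3 FPKM and then 20.8, 27.1, 25.0 and 27.4 (1.53 ± 0.18, adjusted p = 0.010).

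Cldn2, the claudin of cation and water pores, rose from 14.0 ± 2.61 to 27.5 ± 5.97 FPKM (0.96, limma adjusted p = 0.021). Tjp3, which encodes the scaffold ZO-3, rose from 5.96, 5.98, 5.91 and 9.30 FPKM to 13.5, 13.1, 16.6 and 16.0, and Cgn, encoding cingulin of the same junction, from 6.87 ± 1.22 to 12.8 ± 1.31. Of 17 tight junction genes tested, these 4 were called higher and 0 lower, against 0.400% higher over all genes, and the median log2 change of the 17 was 0.14. The count was 2 without WT CT14 replicate 2, WT CT18 replicate 1 or ΔRRE CT14 replicate 1, and 1 without WT CT18 replicate 2, ΔRRE CT18 replicate 1 or ΔRRE CT18 replicate 2. Actb, beta-actin, gave 163, 128, 146 and 170 FPKM and then 241, 293, 262 and 249.2 (0.79, adjusted p = 0.031), and Lasp1, an actin-binding protein, rose from 28.5 ± 3.60 to 44.1 ± 3.50 FPKM. In the list of 17 actin cytoskeleton genes tested these 2 were called higher and 0 lower, again against 0.400%, with a median of 0.02. That count was 1 without ΔRRE CT14 replicate 2 and 0 without any 1 of the other libraries.

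Other genes that rose belonged to several classes, again named after their values were seen. Ddc, aromatic amino acid decarboxylase, went from 25.6 ± 5.87 to 56.1 ± 7.94 FPKM, and Adh4, an alcohol and retinol dehydrogenase with an RRE core in its window, from 56.1 ± 8.84 to 102 ± 9.02. Tfpi2, a secreted serine protease inhibitor that also has that core, gave 20.4, 19.6, 28.4 and 25.3 FPKM and then 46.7, 44.9, 47.3 and 44.5, so that its 4 CT18 libraries differed by less than 3 FPKM. Slc30a10, a manganese exporter, rose from 5.24 ± 1.43 to 10.8 ± 1.54 FPKM. Ethe1 (18.9 ± 0.492 to 35.2 ± 7.15) and Fahd1 (24.2 ± 0.854 to 36.3 ± 2.93) encode mitochondrial enzymes, Hhex (20.6 ± 2.65 to 34.7 ± 3.77) a liver homeobox factor and Pnpla7 (21.9 ± 2.23 to 35.9 ± 2.61) a lysophospholipase. Tmem254a, Tmem254b and Tmem254c rose together (11.7 to 25.5, 36.6 to 63.3 and 42.0 to 73.1 FPKM), as did the histone genes Hist1h2bc and Hist1h2bg (68.6 to 99.2 and 14.3 to 22.3), and since each set consists of near-identical copies, the values of single copies are uncertain.

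Whether the genotypes agreed was tested as the difference of their changes. In WT alone limma called 8 genes (0.0711%): Dbp, Nr1d1, Lpin1 and Zfp595 lower, and Golt1a, Tfpi2 and the predicted genes Gm21981 and Gm2788 higher. ΔRRE alone gave 0 called genes (0.00%), with 849 at an unadjusted p under 0.05 against 954 in WT, and a smallest adjusted p of 0.10. The ΔRRE count was 52 without ΔRRE CT14 replicate 2, a fit in which the outlying replicate 1 stands alone for ΔRRE at CT14, and it was 1 without WT CT18 replicate 1, WT CT18 replicate 2 or ΔRRE CT18 replicate 2. The WT count was 1 without WT CT14 replicate 2 and 2 without WT CT18 replicate 2, ΔRRE CT18 replicate 1 or ΔRRE CT18 replicate 2. A call in WT and not in ΔRRE is thus no sign of a difference, and the test of the difference itself called 1 gene (0.00889%), with 342 at an unadjusted p under 0.05. That count was 2 without WT CT14 replicate 1 or WT CT18 replicate 2, 3 without ΔRRE CT18 replicate 2 and 4 without WT CT18 replicate 1.

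The libraries of the genotypes are separate, so their changes can be set side by side. The p in each genotype used 1 spread estimated from all 8 libraries, so choosing genes by it was not fully independent of the other genotype. Of all genes tested, 62.8% changed in the same direction in both. Among the 100 genes with the smallest p in WT, 90 had the same direction in ΔRRE, with a median change of 1.17 in WT and 0.55 in ΔRRE in the WT direction (log2). Choosing in ΔRRE instead gave 91 of 100 with the same direction in WT, and medians of 1.19 in ΔRRE and 0.64 in WT. In the 1000 genes with the smallest p the shares were 81.1% and 82.3%. The smaller median in the genotype that was not used to choose appeared in both directions of choice. Across genes the changes correlated with a Pearson r of 0.34 and a Spearman rho of 0.36, and genes of the same libraries are not independent. All 71 called genes moved the same way in both genotypes, which the call on their average favours. Of the 8 genes called in WT alone, 5 (62.5%) moved the same way in ΔRRE, with a median change of 2.92 in WT and 0.97 in ΔRRE. Of the 45 that rose 1 (Rnf125) and of the 26 that fell 1 (Lpin1) differed between genotypes at an unadjusted p under 0.05.

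**Figure D2:**
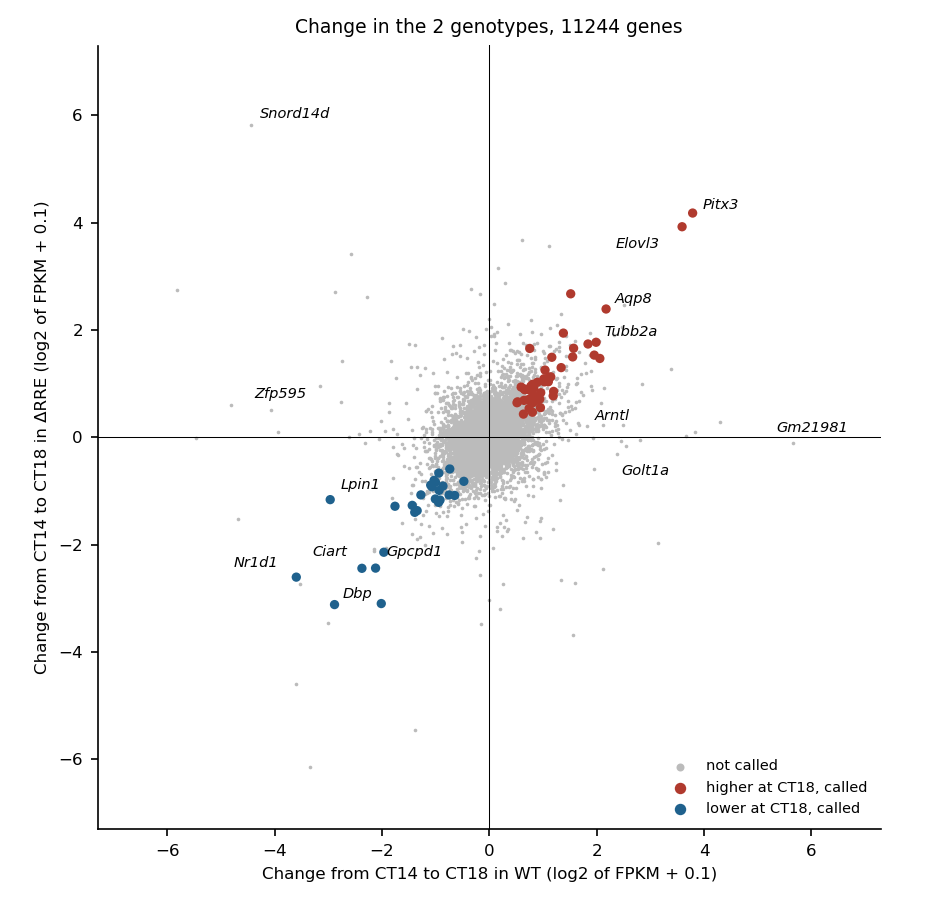
Change from CT14 to CT18 in WT (x axis) and in ΔRRE (y axis), in log2 of FPKM + 0.1, for 11244 genes, with the 45 called higher in red, the 26 called lower in blue and others in grey. The called genes moved the same way in both genotypes, which the call on their average favours. Some lie off the diagonal, such as Lpin1 (-2.96 in WT and -1.16 in ΔRRE). Gm21981, Golt1a, Zfp595 and Snord14d moved in 1 genotype or in opposite directions.

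The 1 gene called for a difference was the predicted gene Gm21981 (chromosome 17, 47686739 to 47694455, minus strand), named although the naming rule leaves such models out. It held 0.133 and 0.121 FPKM in WT at CT14 and 12.2 and 10.54 at CT18, and 12.3, 11.4, 10.9 and 11.1 in the 4 ΔRRE libraries. The WT libraries of CT14 were thus the ones that stood apart, and the change in ΔRRE minus that in WT was -5.76 on the log2 scale (limma adjusted p = 0.00018). Tomm6, a subunit of the mitochondrial import channel, moved the other way in WT, from 54.9 and 45.1 FPKM to 12.6 and 13.2, while ΔRRE gave 11.8 and 9.14 and then 14.3 and 8.80. Exons of Gm21981 cover 76.0% of the exonic bases of Tomm6 on the same strand, so the division of fragments between the genes is uncertain.

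The other genes with the smallest p for a difference were not called (limma adjusted p of 0.32 or more). Zfp595 was at 1.71 and 1.65 FPKM in WT at CT14 and 0.00972 and 0.00299 at CT18, but at 1.18 to 2.48 in ΔRRE. Golt1a went from 1.35 and 0.846 to 6.38 and 5.58 FPKM in WT and from 8.28 and 5.72 to 5.65 and 5.40 in ΔRRE, and shares 41.1% of its exonic bases with Gm28040. Snord14d, whose bases all lie within exons of Hspa8, went from 8.83 and 14.9 FPKM to 2.29 and 0.0206 in WT and from 0.0341 and 0.0636 to 7.47 and 9.26 in ΔRRE. Rasgrp2 (1.98 and 2.89 to 7.12 and 3.07 in WT, 10.0 and 9.60 to 2.54 and 2.68 in ΔRRE) and Fam89b (1.82 and 2.31 to 2.85 and 1.62 in WT, 6.77 and 5.99 to 1.59 and 1.32 in ΔRRE) were higher in both ΔRRE libraries of CT14 than in the other 6, and 99.1% of the exonic bases of Fam89b are shared with Sssca1.

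Libraries of CT10 and CT22 entered the mean that decided which genes were tested, but not the test of CT18 against CT14. CT22 had 461 genes higher than CT10 (4.10%) and 473 lower (4.21%). Of the 45 genes that rose from CT14 to CT18, 44 were higher at CT22 than at CT10 and 35 were called so, with a median difference of 1.09. Rec114 was the exception (-0.61, limma adjusted p = 0.56). All 26 genes that fell were lower at CT22, 23 of them called, with a median of -1.81. Over all genes tested, 68.4% had the same direction in both comparisons. Dbp differed by -5.87, Nr1d1 by -4.55 and Ciart by -4.53 between CT10 and CT22, while Fkbp5 (-0.96, adjusted p = 0.086), Tmtc2 (-0.53, adjusted p = 0.38) and Slc25a51 (-0.05, adjusted p = 0.94) were not called there.

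**Figure D3:**
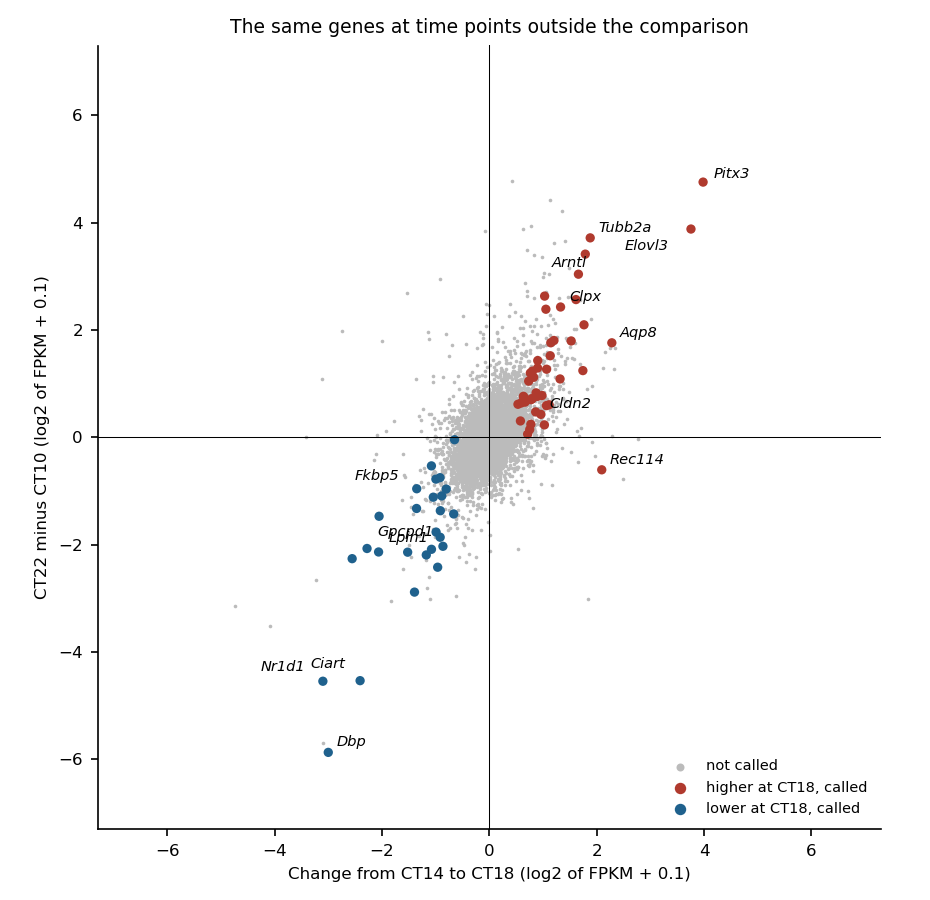
Change from CT14 to CT18 (x axis) and difference CT22 minus CT10 (y axis), in log2 of FPKM + 0.1, for 11244 genes, coloured as called between CT14 and CT18. The 26 blue genes all lie below 0 on the y axis and 44 of the 45 red genes above it, with Rec114 below.

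Seen over the 6 time points, most genes that fell had their highest level at CT10 or CT14, and most that rose had their lowest level there. The 26 fallen genes had their highest mean at CT10 (15 genes), CT14 (10) or CT6 (1), and their lowest at CT2 (14), CT18 (8), CT22 (3) or CT6 (1). The 45 risen genes had their lowest mean at CT14 (22), CT10 (21), CT2 (1) or CT6 (1), and their highest at CT2 (20), CT22 (14), CT18 (9) or CT6 (2). Over all genes tested, 21.0% had their highest mean at CT10 and 20.6% at CT14, and 19.1% and 18.3% their lowest. The call used CT14 and CT18, so these counts are a description. Nr1d1 had its highest mean at CT6 (45.3 ± 16.0 FPKM, SD, n = 4) and Dbp at CT10 (93.5 ± 23.5), so both were already well below it at CT14. Fkbp5 by contrast was at 11.3 ± 4.59 at CT10, 28.8 ± 5.51 at CT14 and 11.1 ± 1.21 at CT18, a maximum at CT14. Elovl3 went on rising to 431 ± 61.5 at CT22 and Clpx to 154 ± 22.7 at CT22 and 166 ± 39.1 at CT2, whereas Actb was highest at CT18 (261 ± 22.7, against 202 ± 29.2 at CT22).

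**Figure D4:**
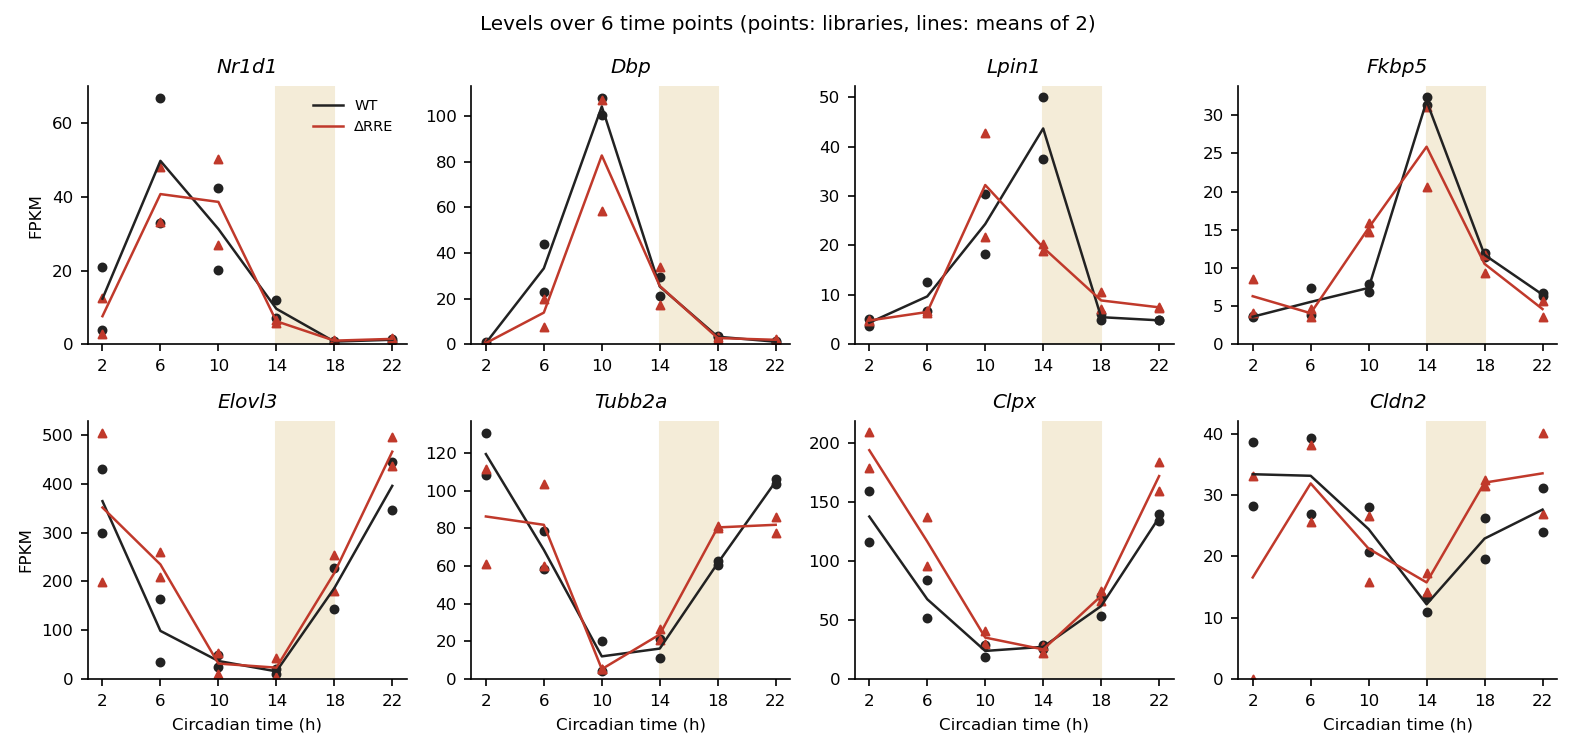
FPKM of 8 genes over circadian time in hours, with points for libraries (circles WT, triangles ΔRRE), lines for the mean of 2 and shading from CT14 to CT18. Dbp had its highest mean at CT10 and Fkbp5 at CT14, and the 4 genes in the lower row were higher at CT18 than at CT14, with 1 ΔRRE library of CT2 listed near 0 for Cldn2.

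Gene lists for liver functions were read as counts beside the 0.400% and 0.231% of all genes. Counts of signs stand beside 5213 positive and 6031 negative changes among all 11244 genes tested. Counts at an unadjusted p under 0.05 in limma stand beside 775 genes higher and 853 lower. Where 4 values of a time point are given in a row, here and elsewhere, they are WT replicates 1 and 2 and then ΔRRE replicates 1 and 2. Of 28 lists, 6 had a member called, all of them lower: 6 of 17 in the core clock, 2 of 15 KLF and E-box outputs (Usp2 and Gys2), 2 of 12 glucocorticoid-responsive genes and metallothioneins (Fkbp5 and Lpin1), 1 of 15 in glycolysis and glycogen (Gys2), 1 of 28 PPAR alpha targets and ketogenesis (Cpt1a) and 1 of 24 in xenobiotic metabolism (Por). The Gys2 call was lost on leaving out any 1 of the 8 libraries, and the Cpt1a and Por calls on leaving out either WT library of CT14 or any library of CT18. The Lpin1 call was lost without any 1 library other than ΔRRE CT14 replicate 2 and ΔRRE CT18 replicate 2. In the list of glucocorticoid-responsive genes 10 of 12 had a negative change and the median was -0.59. No member of the other 22 lists was called, and their medians ran from -0.36 to 0.58.

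The highest median, 0.58, belonged to cholesterol synthesis and uptake, where 21 of 23 members had a positive change and 10 an unadjusted p under 0.05 (0 lower). Among all 11244 genes tested 5213 changes were positive, and 775 genes were higher at that p in limma. Pmvk, phosphomevalonate kinase, gave 20.6, 17.7, 27.5 and 18.7 FPKM at CT14 and 27.4, 55.3, 71.3 and 49.7 at CT18 (log2 change 1.21, limma adjusted p = 0.064). Hmgcs1, HMG-CoA synthase, gave 23.1, 17.6, 27.5 and 25.7 and then 30.005, 78.7, 209 and 62.3 (1.68, adjusted p = 0.12), with WT CT18 replicate 1 close to the CT14 range and ΔRRE CT18 replicate 1 far above it. In fatty acid synthesis 14 of 18 members were positive, with a median of 0.35, of 0.06 in WT and 0.73 in ΔRRE, and Acly, ATP citrate lyase, gave 70.5, 57.8, 72.5 and 62.1 and then 75.5, 111, 170 and 140 FPKM (0.86, adjusted p = 0.082). Without ΔRRE CT14 replicate 1 that median was 0.15.

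Ribosome biogenesis had 20 of 23 members with a negative change, a median of -0.36 and 12 members at an unadjusted p under 0.05, all lower. Among all 11244 genes tested 6031 changes were negative, and 853 genes were lower at that p in limma. Polr1a, the large subunit of RNA polymerase I, gave 4.03, 4.31, 6.42 and 5.58 FPKM and then 2.15, 2.43, 4.24 and 2.46 (-0.85, limma adjusted p = 0.077), with an overlap at ΔRRE CT18 replicate 1. The acute phase list had the same median of -0.36 with 20 of 22 members negative, but 0.05 in WT, -0.68 in ΔRRE and 0.09 without ΔRRE CT14 replicate 1, the library with the high Saa1. In gluconeogenesis 9 of 10 were negative, among them Pck1, which encodes phosphoenolpyruvate carboxykinase (1004, 590.1, 1129 and 623 FPKM, then 493, 232, 400 and 264; -1.28, adjusted p = 0.11). Bile acid synthesis and transport had 0 called, with Abcb11, the bile salt export pump, at 48.5, 55.1, 60.8 and 63.4 FPKM and then 69.0, 71.9, 82.6 and 91.0 (0.46, adjusted p = 0.068).

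Several members of the other lists did not overlap between the time points and yet were not called. Such a gap was present in 4.24% of all genes tested upward and 5.05% downward. The members were chosen by the smallest p of their list, which favours it. Nampt, the rate-limiting enzyme of NAD salvage, gave 34.0, 26.6, 29.1 and 29.2 FPKM and then 17.1, 19.8, 20.3 and 19.7 (-0.62, limma adjusted p = 0.051). Bnip3, a mitophagy receptor, gave 152, 133, 163 and 120 and then 83.5, 73.5, 99.2 and 80.2 (-0.75, adjusted p = 0.051). Foxa2, a liver pioneer factor, gave 12.7, 11.4, 9.60 and 11.7 and then 21.9, 25.9, 15.8 and 30.2 (1.01, adjusted p = 0.060), while Hnf4a, a nuclear receptor of hepatocytes, gave 176, 154, 140 and 136 and then 99.1, 119, 101 and 115 (-0.48, adjusted p = 0.11). Proteasome genes had a median of 0.01 and heat shock genes and chaperones also of 0.01, with Hsp90aa1 at 81.5, 63.1, 36.5 and 108 FPKM and then 102, 119, 119 and 163 (0.88, adjusted p = 0.24).

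**Figure D5:**
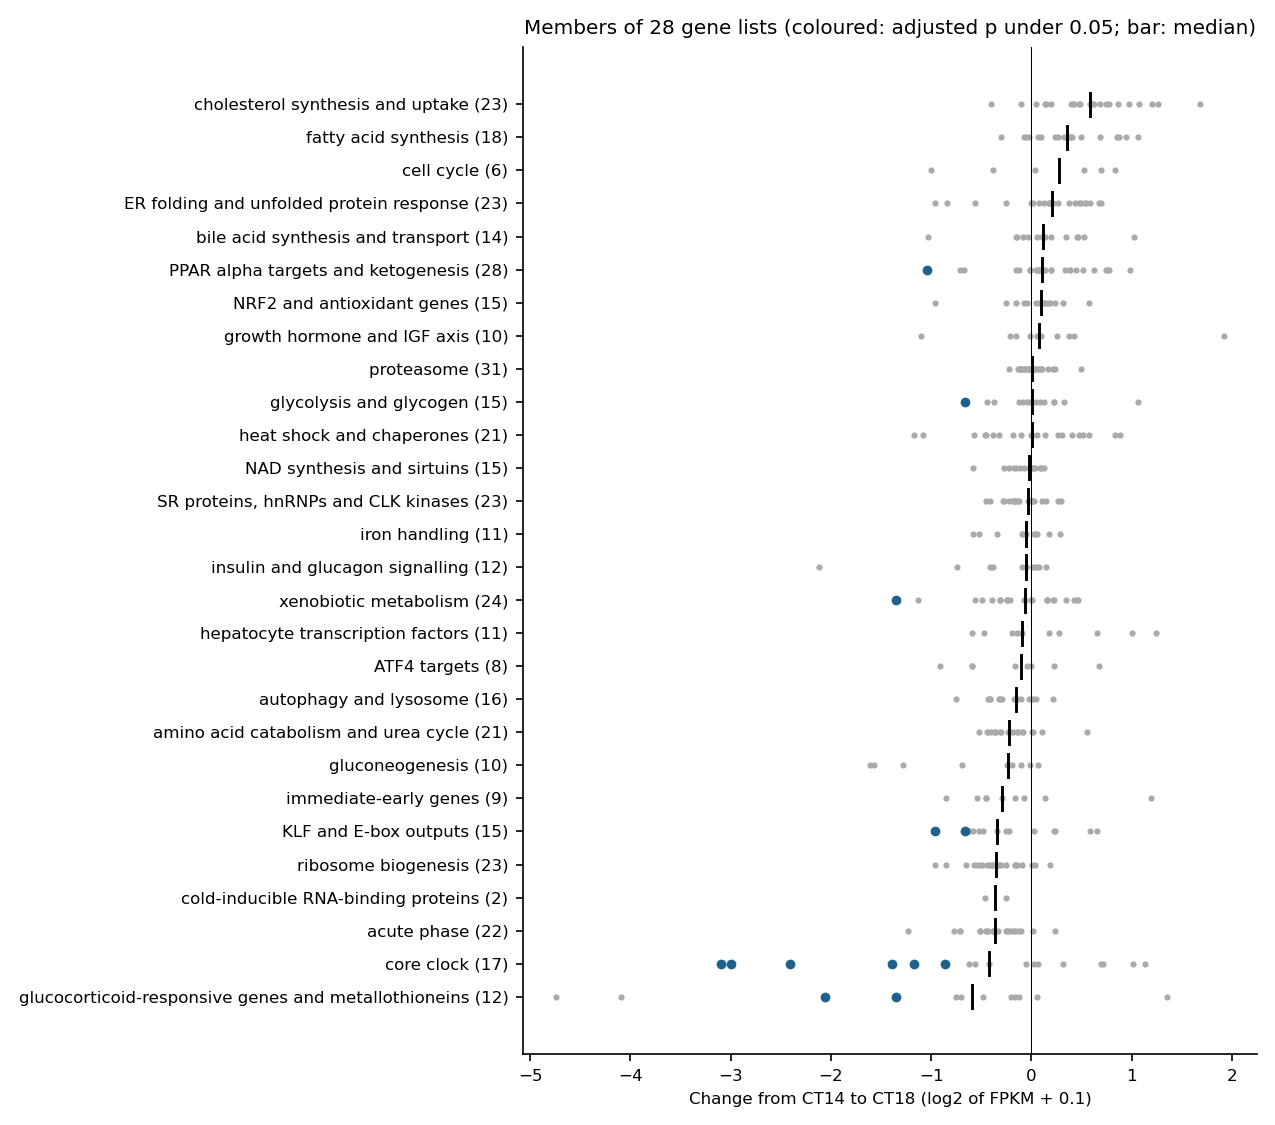
Log2 change (FPKM + 0.1) from CT14 to CT18 of each tested member of 28 gene lists, ordered by median (bar), with the number tested in parentheses and called members in blue. Coloured points lie only on the lower side in these lists, 6 of them in the core clock, and cholesterol synthesis and uptake has the highest median, 0.58.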

How the data were processed

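Poly(A) RNA of whole livers was made into directional libraries and sequenced. Per the submitters' processing notes the tools were Trimmomatic 0.39, HISAT2 2.1.0 and StringTie 1.3.5 with mm10, and the authors deposited FPKM values per gene, 1 table for each of 24 libraries. The number of fragments behind a value is unknown, so precision was read from replicates alone. FPKM sums of the 8 libraries ranged from 556432 to 624746. The 11244 of 54733 genes whose mean across the 24 libraries reached 1 FPKM were tested with limma 3.58.1 (R 4.3.3) on log2(FPKM + 0.1) with an intensity trend and Benjamini-Hochberg adjustment over all of them, and the constant shrinks changes of low genes. Time was tested with genotype as a term. Changes within a genotype and their difference came from 1 mean per genotype and time point in the same 8 libraries. The scripts were tested on simulated data. Genes named were all clock genes, in each direction the 12 largest non-overlapping called changes, 3 members with the smallest p of each other list (values are given for those that bear on the results) and the 3 smallest p values for a genotype difference in each direction, predicted models being counted only. One gene that the rule names is not reported here. The comparison, the lists and the motifs were chosen with earlier results of these data known. Same-numbered replicates deviated together weakly at most (r from -0.00 to 0.20, highest for WT CT18 with ΔRRE CT18), and they were not paired. Gene positions are from GENCODE M21 (GRCm38). A deposited table of the whole series repeats the same values and was not used.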

Additional observations from a re-analysis of the deposited data

Results flagged for a closer look

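The change of the predicted gene Gm21981 from CT14 to CT18 differed between the genotypes by the test of the difference, at -5.76 on the log2 scale (ΔRRE minus WT, limma adjusted p = 0.00018 over 11244 genes). It rested on the 2 WT libraries of CT14, at 0.133 and 0.121 FPKM, while the other 6 libraries held 10.54 to 12.3 FPKM. Exons of Gm21981 overlap those of Tomm6 on the same strand over 859 bases, and Tomm6 was high in the same 2 libraries (54.9 and 45.1 FPKM, against 8.80 to 14.3 in the other 6). The part of the shared exons in this result was not tested. Groups held 2 libraries each, too few for a search for outlying samples within a group.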

How the results depend on the processing

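The 45 higher and 26 lower genes became 0 and 0 without a filter on low values, 118 and 87 in a fit of all 24 libraries and 20 and 16 with a prior variance without trend. Other settings left both counts within 1.5 times: 45 and 26 with a constant of 1 FPKM, 54 and 33 after rescaling by median of ratios (median over all genes 0.01). Leaving out 1 library gave 9 to 48 higher and 11 to 33 lower. The lone library left in a group is then assumed to vary like the others. Genes called in WT ranged from 1 to 12, in ΔRRE from 0 to 52, and for the difference between genotypes from 1 to 4 (3 in the fit of all 24 libraries). The share with the same direction in both genotypes ranged from 59.2% to 62.8%. With the replicate number as a block, 49 genes were higher and 29 lower. Same-numbered libraries deviated together weakly at most, and the labels do not say what the numbers stand for.

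In the lists, leaving out 1 library gave 0 to 1 clock member higher and 4 to 5 lower, 1 to 1 lower among KLF and E-box outputs, 1 to 3 among glucocorticoid-responsive genes, 0 to 0 in glycolysis and glycogen, and 0 to 1 each for PPAR alpha targets and xenobiotic metabolism. Lists with no call ranged from 0 to 1 for fatty acid synthesis, cholesterol synthesis and hepatocyte transcription factors (higher) and for insulin signalling, NRF2 genes and autophagy (lower), and from 0 to 2 for gluconeogenesis (lower). In lists put together after seeing the data, also with this alternative chosen then, it gave 1 to 4 higher for tight junction genes, 2 to 2 for tubulins and 0 to 1 for the actin cytoskeleton. After rescaling, cholesterol synthesis had 1 member higher, hepatocyte transcription factors 1 higher and gluconeogenesis 1 lower. Of 127 named genes, 125 kept their direction in all alternatives run. Per2 ranged from -0.072 to 0.16 with 1 library left out, turning to -0.072 without WT CT18 replicate 2 and -0.066 without ΔRRE CT14 replicate 1. Snord14d ranged from -0.39 to 2.59 and turned to -0.39, -0.27, -0.27 and -0.39 without ΔRRE CT14 replicate 1, ΔRRE CT14 replicate 2, ΔRRE CT18 replicate 1 and ΔRRE CT18 replicate 2. The cause of these changes was not tested. The setting without a filter changed the filter only, which brought in more genes and lower values at once. The fit of 24 held more libraries and also used 1 mean per genotype and time point, and these were not varied separately.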
